A study of Mus musculus with 8 samples.

Results

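The noncoding RNAs described here are the transcripts that an Agilent mouse array lists under a RefSeq NR_ accession, the prefix RefSeq uses for RNAs it does not annotate as protein-coding. Probes were chosen by brightness: the scanner software had to mark the spot as clearly over background (its well-above-background flag) on 4 or more of the 8 arrays. Here 2 imprinted RNAs (5 probes) were left out by name. Of the remaining 766 NR_ probes, 307 (40.1%) met this rule, against 62.3% of the 26392 probes for protein-coding transcripts (NM_ accessions). The 307 probes stand for 256 accessions, and 24872 probes of all kinds were tested in the same fit. A RefSeq gene table gave a symbol to 267 probes of 224 genes, and 40 probes on 30 accessions stayed unnamed. By the type in that table, 148 probes (131 genes) were long noncoding RNAs, 97 (72 genes) transcribed pseudogenes, 13 small structured RNAs and 9 noncoding transcripts of 8 protein-coding genes.

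The brightness that selected these probes was read in both groups of mice. An RNA present in 1 group only therefore entered through that group and had to differ, so counts are also given for the 253 probes above background on all 8 arrays. At the edge of the rule, the 18 probes that met it on exactly 4 arrays had mean log2 levels of -4.57 to -2.70 (median -3.67), and the 9 that missed it with 3 arrays lay at -4.40 to -3.45 (median -3.92). A further 364 NR_ probes were not well above background on any array. Levels here are log2 of the background-subtracted spot signal minus the array's 75th percentile, so 0 is that percentile, and they compare mice for 1 probe, not 1 probe with another.

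The tissue was a fast-twitch muscle of the lower hindlimb, extensor digitorum longus or EDL, from 8 male C57BL/6 mice. The labels call 4 of them PCKO, an inducible knockout of the coactivators p300 and CBP restricted to skeletal muscle. Their genotype field names CBP only, whereas the protocol names both genes. The other 4 are labelled WT. Induction was by tamoxifen, gavaged for 5 days from 13 to 15 weeks of age, with muscles taken 1 day after the final dose and a 4 h fast. The driver of the inducible Cre, and whether WT mice carried floxed alleles or Cre, are not given in the sources used here. The muscle was taken whole, so fibres that escaped the knockout and cells other than muscle fibres contribute RNA.

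p300 and CBP are related acetyltransferases that transcription factors recruit to enhancers and promoters, where they acetylate histones. Long noncoding RNAs are transcribed by RNA polymerase II, like messenger RNAs, and several classes have known roles. Some carry small nucleolar RNAs (snoRNAs) in their introns, some stay in the nucleus and build nuclear bodies, some silence genes on the X chromosome or at imprinted loci, and some are the precursors of microRNAs. Transcribed pseudogenes resemble the coding genes they were copied from. The labelling kit primes from poly(A) tails, so RNAs without a tail, such as mature snoRNAs, small nuclear RNAs and ribosomal RNA, are poorly represented and their values are read with that limit.

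Between 24207 and 25673 probes (43.5% to 46.1%) were well above background on an array, and none was saturated. Correlations between arrays ran from 0.988 to 0.991 within a group and from 0.916 to 0.930 across groups. Both targeted genes were lower in every PCKO mouse than in any WT mouse. Ep300, which encodes p300, differed by -1.44 ± 0.11 (limma, SE, adjusted p = 9.5e-06), and Crebbp, which encodes CBP, by -0.70 ± 0.11 (adjusted p = 6.0e-04), a difference of -0.02 when arrays were centred on spike-ins. Where their probes lie relative to the deleted exons was not determined here. The 75th percentile itself lay 0.68 log2 units higher in PCKO relative to the labelled transcripts spiked into each sample (mean -2.80 with SD 0.33 in PCKO and -3.48 with SD 0.30 in WT; a two-sided exact permutation test of 4 against 4 gave p = 0.0286, its lowest attainable value). All differences below are thus relative to the other RNAs of the same array, and spike-in centring moved the median of all tested probes from 0.02 to 0.71.

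Cell type markers moved as well. All 7 myofibre markers were lower in PCKO, as were 5 of 5 endothelial, 5 of 5 fibroblast and 3 of 4 tested leukocyte markers. With spike-in centring those counts were 4, 0, 3 and 1, under quantile normalization 4, 5, 4 and 3, and with the normexp background correction 4, 5, 4 and 2, and none of these markers was called higher. Summed on a linear scale, myofibre marker levels were 4639 to 5632 in WT and 1931 to 2378 in PCKO, endothelial 16.4 to 23.6 and 12.1 to 14.4, fibroblast 427 to 531 and 213 to 291, and leukocyte 22.9 to 28.8 and 8.37 to 17.3. Satellite cell markers were called lower for 1 of 3 (11.4 to 14.1 in WT, 9.94 to 11.3 in PCKO), Schwann cell markers higher for 1 and lower for 1 of 5 (7.13 to 11.1 and 5.76 to 10.9) and adipocyte markers lower for 1 of 4 (326 to 553 and 174 to 356). Cd68 and Myf5 were below the detection rule. The part of these shifts in the results below was not tested, and in whole muscle fewer cells of a type and less RNA per cell cannot be told apart.

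As a whole the noncoding RNAs were called about as often as the rest of the transcriptome, but rises of 2-fold or more made up a larger share. In PCKO muscle 119 of the 307 probes were called higher (38.8%) and 87 lower (28.3%), with a median difference of 0.06. Across all 24872 tested probes 33.8% were called higher and 31.3% lower (65.1% in all), and across NM_ probes 37.3% and 30.9%. The groups of 4 mice did not overlap for 111 probes that were higher and 76 that were lower in PCKO, where 60.1% of all tested probes and 64.1% of NM_ probes had non-overlapping groups. At 2-fold or more, 53 of the 307 probes were higher, a larger share than the 11.2% of all tested probes (NM_ 11.7%). At that size 44 were lower, against 13.7% of all tested probes (NM_ 13.5%). Of the 253 probes above background on all arrays, 102 were called higher and 68 lower. Among all tested probes above background on all arrays 34.3% were higher and 31.1% lower, 65.4% in all. At 2-fold or more, 39 of these 253 were higher and 28 lower, against 9.12% and 11.5% of all tested probes above background on all arrays. These differences in share were given without a test.

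Averaged over brightness, noncoding and coding probes were called in similar shares, while single bins differed in both directions. Cut into 4 brightness bins, NM_ probes weighted to the same bins were called higher in 36.9% and lower in 30.3% of cases, and with 10 brightness bins in 35.9% and 31.4%. In the dimmest bin 35.1% of the noncoding probes were higher and 29.9% lower (NM_ 30.5% and 29.2%), and in the next 39.0% and 24.7% (NM_ 38.7% and 29.7%). Among the 4 bins the largest gap lay in bin 3, with 38 of 76 probes higher and 14 lower (18.4%) against 44.4% and 27.5% of NM_ probes. In the brightest bin the lean turned, with 31.2% higher and 40.3% lower against 34.2% and 34.8%. No test was made of these shares.

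The classes leaned in different ways. Long noncoding RNA probes were called higher 68 times and lower 40 times (45.9% and 27.0%, median 0.28), where brightness-matched NM_ probes gave 36.5% and 30.0%. Counted by gene, 61 of 131 were higher and 37 lower. Transcribed pseudogenes were higher for 25 probes and lower for 34 (25.8% and 35.1%, median -0.09), against 34.4% and 33.2% of matched NM_ probes. Neither lean held in every brightness bin. In bin 2, counted from the dimmest, 58.3% of pseudogene probes were higher and 16.7% lower (NM_ 42.7% and 28.6%). Long noncoding probes of bin 1 were higher in 35.1% and lower in 35.1% (NM_ 29.2% and 29.8%). Those of bin 2 were higher in 43.2% and lower in 37.8% (NM_ 36.7% and 28.9%). Small structured RNAs were mostly not called, 3 of 13 higher and 2 lower. The unnamed accessions had 18 higher and 10 lower of 40.

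**Figure D1:**
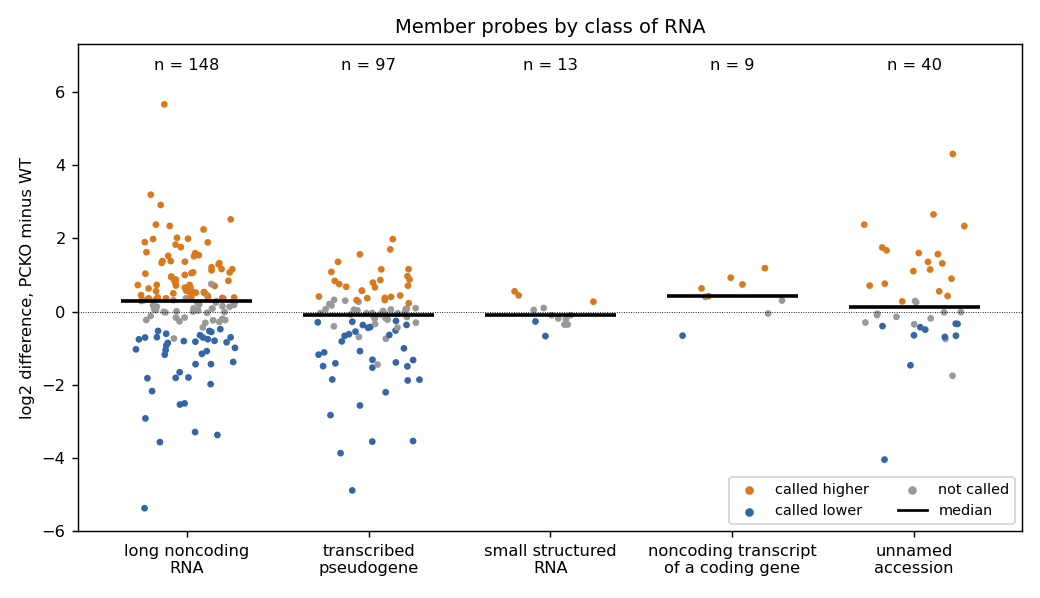
Each point is 1 probe, placed by its class of RNA and by its log2 difference, PCKO minus WT, with the horizontal bar at the class median and n the number of probes. Long noncoding RNAs (median 0.28) reach from -5.37 to 5.65, and the pseudogenes (median -0.09) reach further down, to -4.88, than up, to 1.98.

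The counts of both classes moved with the scaling, as those of the NM_ probes did. Long noncoding probes were called higher and lower 70 and 40 times under quantile normalization, 66 and 35 with the normexp background correction, 42 and 19 of 91 in the deposited values, and 95 and 16 with spike-in centring. Pseudogene probes went from 25 higher and 34 lower to 32 and 27 under quantile normalization, 31 and 28 with normexp, 20 and 15 of 57 in the deposited values and 41 and 15 with spike-in centring. NM_ probes were higher in 37.3% of cases and, in the same 4 alternatives, in 41.8%, 40.9%, 40.7% and 54.7%. Long noncoding probes lay above these shares each time (45.9%, then 47.3%, 44.6%, 46.2% and 64.2%) and pseudogene probes below them (25.8%, then 33.0%, 32.0%, 35.1% and 42.3%). For falls, NM_ probes gave 30.9%, then 27.8%, 27.3%, 28% and 9.08%, and pseudogene probes 35.1%, then 27.8%, 28.9%, 26.3% and 15.5%. The excess of pseudogene falls was thus absent under quantile normalization, small with normexp and reversed in the deposited values. Long noncoding probes were called lower less often than NM_ probes, except with spike-in centring (10.8%). Of the calls over all 307 probes, 57.8% were higher, and 63.1%, 63.2%, 66.4% (of 185 probes) and 83.3% in the alternatives, where NM_ probes gave 54.7%, then 60%, 60%, 59.2% and 85.8%. These differences in share were not tested.

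**Figure D2:**
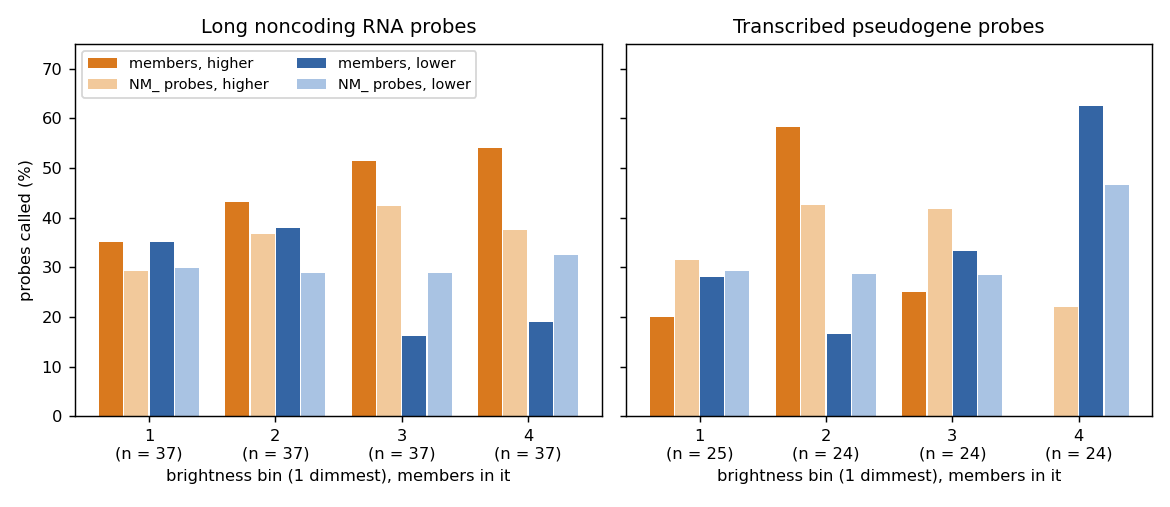
Bars give the percentage of probes called higher (orange) or lower (blue) in PCKO within 4 bins of brightness, for long noncoding RNAs (left) and pseudogenes (right), with NM_ probes of the same brightness in the paler colours and the number of noncoding probes under each bin. In the brightest bin 54.1% of long noncoding probes were higher (NM_ 37.5%), whereas 62.5% of pseudogene probes were lower (NM_ 46.5%) and none was higher. In bin 2, counted from the dimmest, 58.3% of pseudogene probes were higher (NM_ 42.7%) and 16.7% lower (NM_ 28.6%).

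Most measured hosts of snoRNAs rose. Their spliced exons are by-products with few known functions, while the introns yield the snoRNAs that guide chemical modification of ribosomal RNA. Of 21 host genes listed, 9 were measured, of which 7 rose, 1 fell and 1 was not called (median 0.73, against 0.02 over all tested probes, of which 33.8% were higher and 31.3% lower). Snhg12 stood at 1.49, 1.27, 1.92 and 0.75 in the WT mice and at 3.40, 3.28, 3.41 and 3.24 in the PCKO mice. The groups were far apart, and it rose 3.94-fold (1.98 ± 0.22, adjusted p = 7.8e-05). Snhg7 read 0.08, 0.37, 0.42 and 0.00 in WT against 1.92, 1.78, 2.15 and 2.05, a rise of 3.38-fold (1.76 ± 0.13, adjusted p = 6.9e-06).

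Smaller rises followed in 5 other hosts. Snhg1, which carries snoRNAs of the SNORD22 to SNORD31 group, was at -0.12, -0.43, 0.14 and -0.31 in WT and 0.69, 0.74, 0.95 and 0.63 in PCKO (0.94 ± 0.14, adjusted p = 3.8e-04). Dancr, a host also studied as a regulator of differentiation, rose by 0.84 ± 0.14, Snhg3 by 0.73 ± 0.09, Snhg10 by 0.43 ± 0.09 and Snhg6 by 0.39 ± 0.09. In all 7 the groups did not overlap. Snhg16 did not pass, with differences of 0.19 ± 0.10 and 0.31 ± 0.21 on its 2 probes (adjusted p = 0.13 and 0.23). Without WT mouse 2 the first of these was called (0.26, adjusted p = 0.040), as it was with spike-in centring (0.87).

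Snhg17 went the other way. Its levels of -0.79, -1.04, -0.74 and -0.95 in WT stood above those of -2.69, -2.31, -2.53 and -3.23 in PCKO, without overlap, and it fell by 1.81 on the log2 scale (± 0.19, adjusted p = 5.3e-05), or 3.51-fold.

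Host genes often begin with a run of pyrimidines, the 5′ terminal oligopyrimidine tract shared with ribosomal protein genes, so their starts are shown as the feature these genes may have in common. A start counted when the annotated first base lay in an unbroken run of at least 5 C or T letters on the transcribed strand. Such a run covered the start in 3 of the 8 measured hosts that had a promoter entry (37.5%), against 11.8% of the 27025 genes with promoter entries and 12.6% of the 111 measured long noncoding RNA genes. The 60 bases below run from 40 before the start to 20 from it, in GRCm38.p6 from RefSeq, with the run in capitals. They are Snhg12 (chr4:132308638-132308697, plus strand), Snhg7 (chr2:26640225-26640284, minus strand), the start of Snhg17 that holds a run (chr2:158361490-158361549, minus strand), and, with no run of that length, Snhg1 (chr19:8723447-8723506, plus strand) and Snhg3 (chr4:132353667-132353726, minus strand).
Snhg12: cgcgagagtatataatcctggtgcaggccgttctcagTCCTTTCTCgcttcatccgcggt
Snhg7: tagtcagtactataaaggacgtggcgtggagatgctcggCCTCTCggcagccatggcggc
Snhg17: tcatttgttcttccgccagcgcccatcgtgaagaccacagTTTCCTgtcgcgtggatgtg
Snhg1: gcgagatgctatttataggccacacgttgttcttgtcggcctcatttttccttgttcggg
Snhg3: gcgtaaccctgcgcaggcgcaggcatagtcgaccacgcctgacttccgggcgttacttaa
The 2 hosts with the largest rises and the 1 that fell had the run, so the run did not go with 1 direction in these genes.

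The proteins that work with these RNAs were read from lists of coding genes, whose counts stand against 37.3% higher and 30.9% lower over all NM_ probes. Of 12 measured proteins of snoRNA particles, 7 rose and 1 fell (median 0.29). They included Nufip1, an assembly factor (0.72 ± 0.12), Naf1, needed for one class of particle (0.70 ± 0.10), and the methyltransferase Fbl (0.41 ± 0.08), while Ruvbl2 fell by 0.23 (± 0.07). Of 12 factors of nonsense-mediated decay, the pathway that degrades spliced host transcripts along with other RNAs, 8 rose and none fell (median 0.30), led by the endonuclease Smg6 (0.85 ± 0.08).

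Of 24 nuclear and long regulatory RNAs listed, 5 were measured, of which 3 were called higher, 1 lower and 1 not called. Over all tested probes 33.8% were higher and 31.3% lower. Neat1 is the scaffold of paraspeckles, bodies beside nuclear speckles that hold certain RNAs and proteins. It was at 8.44, 8.65, 8.62 and 8.64 in WT and at 9.27, 9.12, 9.22 and 9.35 in PCKO, with no overlap, and rose 1.58-fold (0.66 ± 0.09, adjusted p = 2.1e-04). Malat1, its neighbour, marks the speckles themselves. It stood at 3.47, 4.05, 3.76 and 3.59 in WT and 5.26, 4.80, 5.01 and 4.45 in PCKO, a rise of 2.23-fold (1.16 ± 0.19, adjusted p = 7.9e-04) that was less even among the PCKO mice.

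Other long RNAs of this list gave weaker or divided answers. Tug1, a nuclear RNA linked to chromatin regulators, rose on its brightest probe (0.54 ± 0.08) and on another (0.71 ± 0.15), and its last probe read 0.17 ± 0.14. Norad, a cytoplasmic RNA that binds Pumilio proteins, gave 0.00, 0.15, 0.23 and 0.38 on 4 probes, of which only the last was called (adjusted p = 0.023). Its brightest probe (0.23 ± 0.15) was called under quantile normalization (0.55), normexp (0.52), the deposited values (0.54) and spike-in centring (0.92). Pvt1, which lies beside the Myc gene, was lower by 0.70 ± 0.25 (adjusted p = 0.035). The groups overlapped and the call was lost without any 1 of PCKO mice 1, 2 and 4 or WT mice 2, 3 and 4 (-0.73 to -0.56), under quantile normalization (adjusted p = 0.051), with normexp (-0.24, adjusted p = 0.073), in the deposited values (-0.33, adjusted p = 0.061) and with spike-in centring (-0.02).

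Genes for paraspeckle proteins were mostly higher. Of 13 measured, 8 rose, 5 were not called and none fell (median 0.50), against 37.3% higher and 30.9% lower over NM_ probes. Pspc1 rose by 0.98 ± 0.13, Sfpq by 0.83 ± 0.10 and Nono by 0.63 ± 0.09, the 3 relatives that form the core of the body, while Tardbp stood at -0.13 ± 0.12 and was not called. Of 24 genes of the nuclear exosome and Integrator, which trim and degrade nuclear noncoding RNAs, 9 were higher, a share close to that of NM_ probes, 3 lower and 12 not called (median 0.10).

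**Figure D3:**
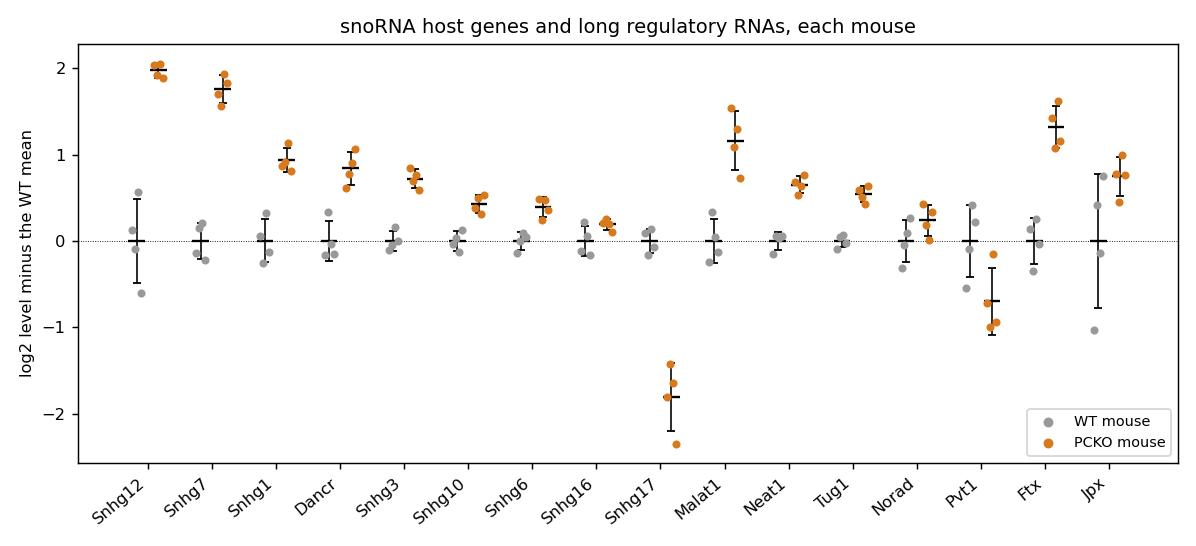
Each point is 1 mouse (grey WT, orange PCKO), as its log2 level on the gene's brightest probe minus that gene's WT mean; bars are group means with SD, n = 4. Snhg12 and Snhg7 lie 1.98 and 1.76 above their WT means, Snhg17 lies at -1.81, and the groups overlap for Snhg16, Norad, Pvt1 and Jpx.

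RNAs of X inactivation and of imprinted clusters moved both ways. These animals were all male. Ftx and Jpx come from the X inactivation centre, where they act on Xist. Ftx was at -2.71, -3.20, -2.60 and -2.89 in WT and -1.43, -1.77, -1.23 and -1.69 in PCKO, with no overlap (1.32 ± 0.16, adjusted p = 1.5e-04). Jpx did not pass (0.75 ± 0.35, adjusted p = 0.087) and was above background on 3 of 4 WT arrays. It was called without WT mouse 4 (1.0, adjusted p = 0.027) and with spike-in centring (1.43).

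Of 5 imprinted RNAs measured, 3 rose and 2 fell, where all tested probes were called higher in 33.8% and lower in 31.3% of cases. Peg13, a paternally expressed intronic RNA, read 4.31, 4.17, 3.85 and 4.53 in WT and 5.14, 4.59, 4.89 and 5.14 in PCKO (0.72 ± 0.18, adjusted p = 0.0065). Igf2os, antisense to Igf2, rose by 0.52 ± 0.11 (adjusted p = 0.0036), a call that normexp took away (adjusted p = 0.052). Airn, the antisense RNA that silences Igf2r on the paternal allele, fell on both probes. Its brighter probe was at 1.62, 1.49, 1.25 and 1.85 in WT and 0.67, 0.88, 0.77 and 0.87 in PCKO (-0.76 ± 0.13, adjusted p = 0.0010, and -0.08 with spike-in centring), while Igf2r itself read 0.06 ± 0.08 and was not called. Kcnq1ot1, the silencing RNA of the Kcnq1 cluster, was at 1.86, 2.50, 1.94 and 2.11 in WT and 2.55, 2.29, 2.55 and 2.58 in PCKO. That difference of 0.39 ± 0.15 (adjusted p = 0.044) was lost with the replicate block (adjusted p = 0.094), with the slide row as a block (0.060), and without PCKO mouse 1, 3 or 4 or WT mouse 1, 3 or 4 (0.31 to 0.39).

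Hosts of microRNAs moved both ways. The array read the long host transcript, and the mature microRNAs were not measured. Of 6 hosts measured from the list, 3 rose, 2 fell and 1 was not called. All tested probes were called higher in 33.8% and lower in 31.3% of cases. Ftx, counted above with X inactivation, had the largest change of the 6 (1.32). Mirg, the last transcript of an imprinted chromosome 12 cluster and also among the 5 imprinted RNAs, was at -0.02, 0.42, 0.38 and 0.31 in WT and at -0.47, -0.09, -0.18 and -0.28 in PCKO. It fell by 0.53 (± 0.13, adjusted p = 0.0059) but stood at 0.15 with spike-in centring. Mir99ahg rose by 0.72 ± 0.17. Mir22hg, host of the muscle-abundant miR-22, was higher by 0.36 ± 0.13 (adjusted p = 0.038), with overlapping groups, and lost its call with the replicate block (adjusted p = 0.063) and without WT mouse 1, 3 or 4 or PCKO mouse 1, 2 or 3 (0.27 to 0.37). Dleu2, host of miR-16, was lower by 0.80 ± 0.29 (adjusted p = 0.038) and lost its call without PCKO mouse 1, 2 or 3 or WT mouse 2, 3 or 4 (-0.80 to -0.60) and with spike-in centring (-0.11). Mir17hg was not called (0.32 ± 0.16), and was called without WT mouse 2 (0.43, adjusted p = 0.045) and with spike-in centring (1.0).

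Within 7 measured long noncoding RNAs lie 39 mature microRNAs of the RefSeq table on the same strand, with 36 seeds (bases 2 to 8, which pair with targets). The sequences below show what hosts that rose and hosts that fell carry, with the seed in capitals and coordinates in GRCm38.p6. Those of Ftx (chrX, minus strand), Mir22hg (chr11, plus strand), Mirg (chr12, plus strand) and Dleu2 (chr14, minus strand) are 21 to 24 bases long.
miR-421-5p (Ftx, chrX:103572966-103572986): cUCAUUAAauguuuguugaau
miR-374b-5p (Ftx, chrX:103573112-103573133): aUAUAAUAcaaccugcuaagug
miR-22-3p (Mir22hg, chr11:75463772-75463793): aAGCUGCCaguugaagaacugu
miR-453 (Mirg, chr12:109735669-109735692): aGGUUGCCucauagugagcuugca
miR-496a-5p (Mirg, chr12:109739132-109739152): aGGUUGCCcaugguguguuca
miR-410-3p (Mirg, chr12:109743764-109743784): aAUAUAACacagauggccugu
miR-16-5p (Dleu2, chr14:61631936-61631957): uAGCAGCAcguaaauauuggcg
Mirg carries 19 of the 39, and miR-453 and miR-496a-5p share the seed GGUUGCC. The other 2 shared seeds, AAGUGCU and CUCAAAC, fall within D7Ertd143e, host of the embryonic miR-290 cluster (0.31). No seed was shared between a host that rose and one that fell.

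Most genes of microRNA processing rose. Of 13 measured, 9 rose and 2 fell (median 0.33), against 37.3% and 30.9% of NM_ probes. Prkra, a Dicer partner, rose by 2.38 ± 0.09, Ago4 by 1.41 ± 0.09 and Xpo5, the export receptor of precursor hairpins, by 1.39 ± 0.07. Dicer1 fell by 0.31 (± 0.09, adjusted p = 0.012) and Ago2 by 0.27 (± 0.10, adjusted p = 0.038).

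The largest changes of all lay in RNAs with few known roles. 4931440P22Rik was at -0.36, -0.75, -0.84 and -0.71 in WT and at 4.76, 4.76, 5.12 and 5.31 in PCKO, a rise of 50.3-fold (5.65 ± 0.16, adjusted p = 4.6e-08). G630025P09Rik rose from -2.35, -2.15, -1.95 and -1.26 to 1.43, 1.28, 1.09 and 1.23, or 9.12-fold (3.19 ± 0.22, adjusted p = 4.6e-06). Each PCKO mouse stood above each WT mouse for both.

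Next came rises of 1.83 to 2.51 on the log2 scale. 1500011B03Rik rose by 2.24 ± 0.13 on its brighter probe and by 2.37 ± 0.46 on the other. BC031361 rose by 2.01 ± 0.17. Trmt61b, typed as a long noncoding RNA in the table although its symbol is that of a transfer RNA methyltransferase, rose by 1.99 ± 0.15. 2410006H16Rik was brighter, at 3.58, 3.37, 4.08 and 3.74 in WT and 5.66, 5.48, 5.81 and 5.37 in PCKO (1.89 ± 0.16). The pseudogene Gpr137b-ps rose on both probes (1.98 ± 0.12 and 1.36 ± 0.13). Gm4532 (2.51 ± 0.44), Gm12359 (2.34 ± 0.31) and E530011L22Rik (1.83 ± 0.37) were above background on 4 PCKO arrays and 1 WT array each, so the size of their rise is uncertain.

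Prr33 had the largest fall. The table types it as a long noncoding RNA, although the symbol stands for a proline-rich protein. It was bright in WT, at 7.83, 7.73, 7.92 and 7.64, and stood at 2.39, 2.38, 2.43 and 2.46 in PCKO, a fall of 41.3-fold (-5.37 ± 0.08, adjusted p = 1.4e-08) with little spread in either group. The pseudogene Gm13315 read 4.41, 4.06, 4.30 and 4.24 in WT and 0.87, 0.68, 0.70 and 0.57 in PCKO, or 11.7-fold lower (-3.55 ± 0.10, adjusted p = 5.1e-08). 3110099E03Rik fell by 2.51 (± 0.14) and 1110020A21Rik by 2.17 (± 0.11).

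Gm3893, another pseudogene, was uneven. It read 0.41, 0.98, -0.02 and -0.13 in WT and -5.01, -1.52, -0.47 and -5.90 in PCKO, where it was above background on 2 arrays. Its difference of -3.53 ± 1.14 (adjusted p = 0.023) lost its call without PCKO mouse 1 (-2.94, adjusted p = 0.061) or WT mouse 2 (-3.31, adjusted p = 0.057). Its other, dimmer probe read -1.45 ± 0.60 and was not called (adjusted p = 0.061).

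**Figure D4:**
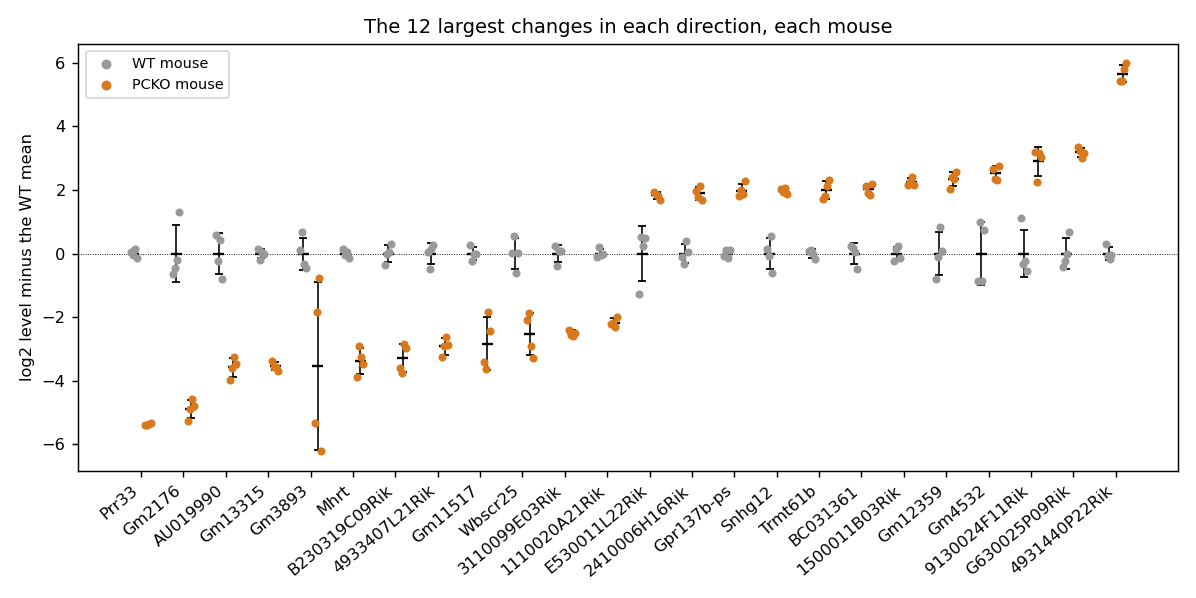
Each point is 1 mouse (grey WT, orange PCKO), as the log2 level minus the gene's WT mean, for the 12 largest falls and the 12 largest rises among called genes with non-overlapping groups; bars are group means with SD, n = 4. Prr33 (-5.37) and 4931440P22Rik (5.65) stand at the ends, and Gm3893 shows the widest PCKO spread.

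Mhrt is a muscle RNA transcribed antisense to Myh7, the slow and cardiac myosin heavy chain gene. It was above background on 4 WT arrays and on no PCKO array, at -2.28, -2.46, -2.35 and -2.55 in WT, and not well above background at -6.29, -5.31, -5.65 and -5.87 in PCKO. It was at least 2.60-fold lower (fitted -3.37 ± 0.19, adjusted p = 1.5e-06). Such bounds replace the dim group's values, array by array, with the lowest signal flagged as well above background where that is higher, and are smaller than the fitted values. Myh7 fell by 5.82 (± 0.21).

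In all 13 probes were flagged above background in all 4 mice of a group and in no mouse of the other, 8 in WT only and 5 in PCKO only. By these bounds Gm2176 was at least 6.54-fold lower, Gm11517 at least 3.82-fold, B230319C09Rik at least 3.04-fold, AU019990 at least 2.69-fold, Wbscr25 at least 2.58-fold and 4933407L21Rik at least 1.60-fold. Above background in PCKO only were 9130024F11Rik, at least 2.29-fold higher, 4930429B21Rik, at least 1.46-fold, and the pseudogene Zfp389, at least 1.25-fold, whose fitted levels overlapped between the groups. With normexp Zfp389 differed by 0.11 and was not called (adjusted p = 0.20).

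Many long noncoding RNAs lie near or inside coding genes, and their changes were set beside those neighbours. Within 10000 bases, 88 long noncoding RNAs had a measured coding neighbour, and in 43 pairs both members were called. The pair moved the same way in 27 (19 both higher, 8 both lower) and opposite ways in 16. Taken singly, 74.8% of the long noncoding genes and 68.2% of NM_ probes were called, and 62.2% and 54.7% of those calls were higher. Whether neighbours moved together more often than unrelated pairs was not tested. Over the 88 pairs, which share the same 8 arrays, Pearson's r was 0.31 and Spearman's rho 0.21. Where both start within 1000 bases of each other on opposite strands, 8 of 15 pairs had both members called, 4 moving the same way and 4 opposite ways.

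Single pairs showed both kinds. Prr33 overlaps Lsp1, which fell by 2.45 (± 0.12), and Gm4532 overlaps Septin1, which rose by 3.03 (± 0.23). G630025P09Rik lies near Chrnb1, the beta subunit of the muscle acetylcholine receptor, which rose by 1.63 ± 0.16. Snhg1 rose beside Slc3a2, an amino acid transporter subunit (1.69 ± 0.09), and Snhg12 beside Trnau1ap (1.25 ± 0.11). In contrast, 4931440P22Rik rose while the overlapping Tiparp, a target of the aryl hydrocarbon receptor, fell by 1.07 (± 0.12). AW011738 rose on both probes (1.21 ± 0.22 and 1.29 ± 0.18) while Perm1, a muscle regulator of mitochondrial genes that overlaps it on the same strand, fell by 5.17 (± 0.19), or 35.9-fold.

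**Figure D5:**
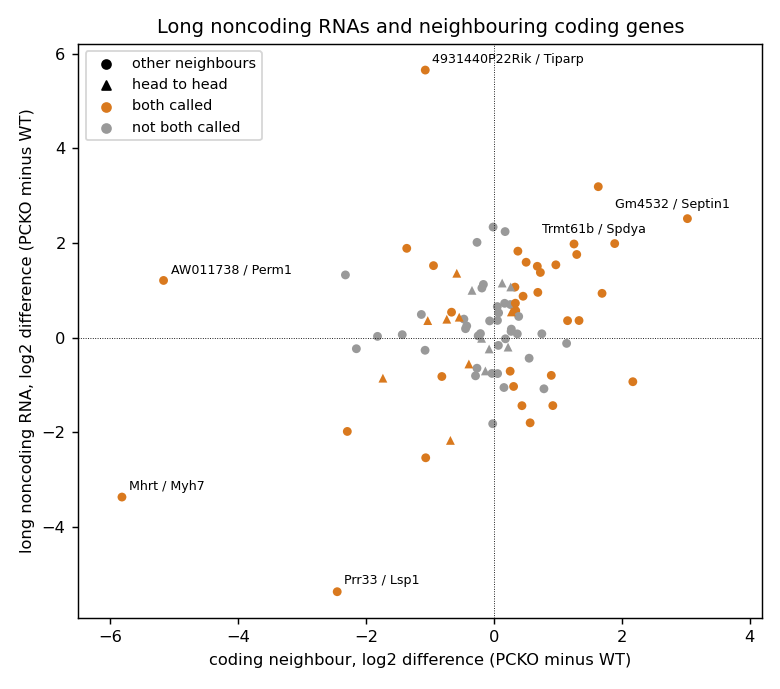
Each point is a long noncoding RNA and its coding neighbour within 10000 bases (88 pairs), with the neighbour's log2 difference on the horizontal axis and that of the noncoding RNA on the vertical axis; orange marks pairs with both called, and triangles pairs that start head to head. Mhrt with Myh7 and Prr33 with Lsp1 lie at the lower left, and AW011738 with Perm1 at the upper left.

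Of 14 antisense and opposite-strand RNAs named after a gene, 12 had a measured partner. In 4 pairs, Mhrt with Myh7 among them, both were called, each time in the same direction. Map2k3os fell with Map2k3 (-0.86 ± 0.12 and -1.74 ± 0.10), a kinase of the p38 pathway. Zbtb11os1 rose with Zbtb11 (1.51 ± 0.11 and 0.68 ± 0.12), and Phtf1os rose with Phtf1 (0.57 ± 0.12 and 1.07 ± 0.15). Rab10os was not called (0.06 ± 0.15) while Rab10, a regulator of vesicle traffic, fell by 1.43 (± 0.09). Dio3os fell (-0.81 ± 0.21) while Dio3, which inactivates thyroid hormone, read -0.29 ± 0.38 and was not called. Kcnq1ot1 was called higher (0.39 ± 0.15) while Kcnq1 read -0.47 ± 0.23 and was not called. Stk35os1 was not called (0.25 ± 0.10) while Stk35 fell by 0.43 (± 0.17). Whether such partners moved together more often than unrelated pairs was not tested.

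1110020A21Rik is shown with its promoter because it begins head to head with Ppm1b, a phosphatase gene, and 1 of its 2 annotated starts holds the full cyclic AMP response element. That element is the site bound by CREB, a factor that recruits CBP and p300. 1110020A21Rik was at 0.75, 1.07, 0.81 and 0.85 in WT and -1.35, -1.30, -1.45 and -1.11 in PCKO (4.50-fold lower, adjusted p = 6.6e-07), and Ppm1b fell by 0.68 (± 0.09). The element, TGACGTCA, which reads the same on both strands, is in capitals in the 300 bases from 250 before that start to 50 after it, chr17:84957374-84957673, minus strand, GRCm38.p6, from RefSeq.
1110020A21Rik: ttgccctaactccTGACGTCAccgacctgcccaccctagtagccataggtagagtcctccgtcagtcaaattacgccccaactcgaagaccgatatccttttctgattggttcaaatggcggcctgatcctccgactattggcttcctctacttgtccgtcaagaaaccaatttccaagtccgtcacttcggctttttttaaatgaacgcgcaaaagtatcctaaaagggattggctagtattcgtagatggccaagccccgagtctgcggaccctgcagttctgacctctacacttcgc
It was the only 1 of 111 measured long noncoding RNA genes with a promoter entry to hold the exact element (0.901%), against 2.03% of the 27025 genes with such an entry. A match of letters is a description and not evidence of binding.

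Of the 34 pseudogene probes that fell, 15 were in the brightest of 4 bins, and 7, 4 and 8 in the others from dim to bright. In the brightest bin, 24 probes of 14 genes, 15 probes of 9 genes were lower and none higher, with differences from -1.86 to 0.09, and brightness-matched NM_ probes were lower in 46.5% and higher in 22%. Gm6981 had 5 probes. On 4 of them it fell by 1.49 to 1.85, for example from 8.61, 8.31, 8.38 and 8.25 in WT to 6.84, 6.69, 7.04 and 6.86 in PCKO (-1.53 ± 0.11), while its dimmest probe rose by 0.75 ± 0.12. Gm8709 fell on all 3 probes (-2.20 to -1.41), as did Gm5069 (-1.86 to -1.32) and Gm12070 (-1.32 to -0.55). Gm5523 had a bright probe that fell (-0.64 ± 0.10) and a dim one that rose (0.68 ± 0.13). Probes of a pseudogene can also capture its coding relatives, and no probe sequences were used here to separate them, so these values are uncertain as measures of the pseudogenes themselves.

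No pseudogene probe of the brightest bin rose. Beside Gpr137b-ps those that rose included Macroh2a3 (1.70 ± 0.21), Pisd-ps3 (1.56 ± 0.18) and Pisd-ps1 (1.08 ± 0.14). Of the 31 genes of any class with several probes, Gm6981 and Gm5523 were the 2 with probes called in opposite directions.

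Of the 13 probes for small structured RNAs, read on a poly(A)-primed assay, 5 were called, against 65.1% of all tested probes. Rpph1, the RNA of ribonuclease P, which trims transfer RNA precursors, rose by 0.55 ± 0.14 (adjusted p = 0.0088), Snord123, a snoRNA, by 0.44 ± 0.09 and Rnu7, the small nuclear RNA of histone messenger processing, by 0.27 ± 0.10. Snora47 was lower by 0.27 ± 0.10 (adjusted p = 0.041), and was above background on only 3 WT arrays and 1 PCKO array. The groups overlapped for Snora47 and for Rnu7 (adjusted p = 0.047 for Rnu7). Rn28s1, the large ribosomal RNA, was at 8.04, 7.47, 7.98 and 7.53 in WT and 7.16, 7.01, 6.92 and 7.25 in PCKO (-0.67 ± 0.15, adjusted p = 0.0047). That call was lost under quantile normalization (-0.21), normexp (-0.23), the deposited values (-0.16) and spike-in centring (0.01). Terc, the template of telomerase (-0.35 ± 0.25), and Rmrp, the RNA of ribonuclease MRP (-0.10 ± 0.22), were not called.

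In coding genes, a noncoding transcript could be set beside the gene's NM_ probe. In Zfp672 both kinds were called, in opposite directions. Its NR_ probe was at 3.58, 3.74, 3.60 and 3.76 in WT and 2.60, 2.64, 3.42 and 3.38 in PCKO (-0.66 ± 0.21, adjusted p = 0.020), while its NM_ probe rose by 1.48 ± 0.11. The fall lost its call without PCKO mouse 1 (-0.52, adjusted p = 0.050) or 2 (-0.53, adjusted p = 0.052), and the NR_ probe read 0.02 with spike-in centring. Bmp1 read 0.40 ± 0.18 on its NR_ probe and fell on 1 of 2 NM_ probes (-0.95 ± 0.09), and Ccl25 read 0.30 ± 0.35 against a fall of 1.92 (NM_ difference -1.92 ± 0.12). The NR_ probe of Ccl25 was dim, above background on 2 WT and 3 PCKO arrays, which limits the fall it could show. In Prmt6, an arginine methyltransferase, both kinds rose (0.63 ± 0.20 and 0.74 ± 0.12 on NR_ probes, 1.45 ± 0.26 on the NM_ probe), as they did in Tmem80 (0.42 ± 0.11 and 0.84 ± 0.09). Rreb1 rose on its NR_ probe (0.92 ± 0.16) and on 1 of 2 NM_ probes (0.71 ± 0.18), and the other read 0.16 ± 0.11 (adjusted p = 0.23). The difference between probe kinds was not tested.

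Among the accessions without a symbol, NR_028086 was above background on 4 PCKO arrays and on no WT array, at least 8.52-fold higher. NR_002860 rose alike on 3 probes, by 2.33 ± 0.12, 2.37 ± 0.16 and 2.65 ± 0.11. NR_033578 was at 2.29, 2.27, 2.88 and 1.52 in WT and -0.89, -2.84, -0.81 and -2.69 in PCKO (-4.04 ± 0.53, adjusted p = 2.0e-04), and NR_033217 fell by 1.47 (± 0.17). From a list of 8 genes for small peptides, only Sln, which encodes the calcium pump inhibitor sarcolipin, was measured under a coding accession, and it fell by 3.14 (± 0.24).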

How the data were processed

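RNA of each mouse was labelled with Cy3 and read on its own single-colour array, 8 arrays on 1 slide in 2 rows with 2 of each group per row. Per the file headers, spot intensity came from Feature Extraction 10.7.3.1 with background subtracted, and nothing was normalized between arrays. The deposited series table holds log2 values and served as an alternative only. How it was made is not stated in the sources used here.

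Each array's 75th percentile (non-control probes, outlier spots left out) was subtracted from its log2 intensity values. Probes well above background on at least 4 arrays were tested in R 4.3.3 by limma 3.58.1 (eBayes after lmFit with group as the only term, two-sided, Benjamini-Hochberg over all 24872 tested probes, threshold 0.05), and the fit was tested on simulated data. One member probe (Gm3020) lacked 1 array value. Names and gene types came from RefSeq accessions (GRCm38.p6). The arrays were designed on an older build, so only RefSeq sequences carry coordinates. The members and lists were chosen with earlier results of these data known. A gene is represented by its brightest probe. Named are all measured genes of the noncoding lists, the 12 largest changes in each direction whose groups did not overlap, bounds (at most 4 in a direction) and, per class, the largest change each way. Others, such as neighbours and further probes, were chosen after their values were seen. The p-values measure the spread between 4 mice per group, and the number of arrays limits precision. The same replicate numbers occur in both groups and were not treated as pairs in the main fit. Correlations of deviations, 0.025 to 0.15 over the 4 numbers, cannot settle whether they pair mice. Alternatives were quantile, median and spike-in scaling (7 probes), normexp with an offset of 50 on median signals (mean signals are not among the columns), filters, outlier spots, variance models, the deposited values, blocks and leaving out each mouse. Each slide row alone was added after seeing the data.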

Additional observations from a re-analysis of the deposited data

Results flagged for a closer look

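Within 112 groups of 4 mice from the 56 named genes, Dixon's test at the 95% level marked 4 single values far from the other 3, where chance marks about 1 in 20 groups. WT mouse 1 was lowest for E530011L22Rik (-5.56, the others -4.06 to -3.77) and for Neat1 (8.44, the others 8.62 to 8.65). PCKO mouse 2 was lowest for Kcnq1ot1 (2.29, the others 2.55 to 2.58). WT mouse 4 was highest for Terc (-0.75, the others -1.82 to -1.67).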

How the results depend on the processing

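Of the 56 named genes, 50 were called, and 32 kept their call and direction in each alternative that gave them a value. Among these genes, the largest changes in each direction were named because they were called and their groups did not overlap. That choice fixed their calls in advance, so both counts say little about probes not chosen in this way. Over all tested probes 65.1% were called. Spike-in centring left 34 probes lower in place of 87 (long noncoding 16, pseudogenes 15 lower and 41 higher) and reversed Mirg (0.15), Rmrp (0.58), Rn28s1 (0.012), Terc (0.33) and Zfp672 (0.024). In the deposited values, which hold 185 of the 307 probes, 116 were called, 77 higher and 39 lower (long noncoding 42 and 19, pseudogenes 15 lower, snoRNA hosts 3 higher). Row 1 alone, with 2 mice per group, gave 136 calls, 76 higher (long noncoding 44, pseudogenes 14, snoRNA hosts 4), and reversed Terc (0.048). Row 2 alone gave 137 calls, 79 higher (pseudogenes 13), and reversed Norad (-0.016) and Rmrp (0.26). These settings hold fewer mice or fewer listed probes. The cause of the fewer calls there and of the other changes was not tested. With 1 mouse left out, 191 to 203 probes were called, 109 to 120 higher and 78 to 83 lower, long noncoding probes 61 to 70 and 35 to 39, pseudogenes 23 to 25 and 31 to 34, and snoRNA hosts 7 to 8 and 1. Rmrp ran from -0.24 to 0.14, reversed without WT mouse 2. With the replicate block 113 probes were higher and 89 lower. In deviations from the group mean, 3 of 4 PCKO mice correlated best with the WT mouse of their own number, a hint from the data and not the design. For PCKO mouse 3 the margin was small (0.054, and 0.052 with WT mouse 1). Dim probes (54 of 307 not above background on every array) limit the size of their differences.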
